A study of Mus musculus with 48 samples.

Results

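Serpina10, Lrg1 and Cp encode proteins that are secreted into blood plasma. Their transcript levels were followed in whole kidney across the 8 groups of a vancomycin toxicity study. The 3 genes were picked by name from 7859 genes that could be named in the table, because their levels were much higher after 400 mg/kg. Their values at 400 mg/kg are therefore given as a description, with no test. All 3 were among the 5748 genes past the filter on low values.

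Vancomycin is a glycopeptide antibiotic that can damage the kidney tubule. Female BALB/c mice, whose age is not stated in the labels, received 7 daily injections and were killed on Day 8. By the intraperitoneal (ip) route 4 groups received saline, 50, 200 or 400 mg/kg vancomycin. By the intravenous (iv) route 4 groups received saline, 50, 200 or 400 mg/kg vancomycin. Each group held 6 mice with 1 Affymetrix array per kidney, and this number of arrays limits the precision.

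Most circulating Serpina10, Lrg1 and Cp protein is known to come from the liver. Serpina10 is the protein Z-dependent protease inhibitor, which blocks coagulation factor Xa together with its cofactor protein Z and blocks factor XIa without it. Lrg1 is a leucine-rich glycoprotein that binds the TGF-beta co-receptor endoglin on endothelial cells and is raised in plasma during the acute-phase response. Cp is ceruloplasmin, a copper-carrying ferroxidase that oxidises iron leaving cells through ferroportin and is also an acute-phase protein.

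All gene names carry a limit. The order of values in the deposited table is shifted against the order of its probe set identifiers. As listed, probe sets of 1 gene had mean levels that correlated at 0.038 across 30406 pairs. Names were given only in 3 stretches, 24.4% of the 45101 rows, where the values follow the identifiers at a constant offset, and there the correlation was 0.494 across 2927 pairs. Those pairs helped to find the offsets, so they are no independent check. Under the identifiers as listed, the 400 mg/kg differences of the 3 genes lay between -1.09 and 0.39 (log2). Array medians spanned 3.47 to 3.68 (log2 intensity) over the 24 ip arrays and 3.34 to 3.55 over the 24 iv arrays. For the labelled tissue, all 13 tested proximal tubule markers had group means above the median of the table, 3.47, in each of the 8 groups. Tested genes had to exceed 3.47 in at least 6 arrays, so this is partly built in. The 8 tested hepatocyte markers also had means above 3.47 in both saline groups. These means therefore do not identify the tissue. A mean near or under 3.47 cannot be told from background.

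Serpina10 was read by 1 probe set, 1424758_s_at, whose suffix marks probes that can match several transcripts. The gene lies on chromosome 12 at positions 103616675 to 103631490 (GRCm38.p6). Lrg1 was read by 1 probe set, 1417290_at, and lies on chromosome 17 at 56119678 to 56121946. Cp lies on chromosome 3 at 19956933 to 20009750, and 4 of its 8 annotated probe sets fell in a named stretch. The brightest of them, 1417494_a_at, stands for Cp below.

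Because the 3 genes moved together, the promoter windows that RefSeq annotation gives on GRCm38.p6 were searched, from 250 bases before to 50 bases after a transcript start. Windows were found for 2 of the 3 genes, Lrg1 and Cp, with 2 overlapping windows for Cp. The Lrg1 window, on the minus strand at chr17:56121897-56122196, and the upstream Cp window, on the plus strand at chr3:19956804-19957103, are shown because both genes respond to acute-phase signals. Capitals mark the single motif match.
Lrg1: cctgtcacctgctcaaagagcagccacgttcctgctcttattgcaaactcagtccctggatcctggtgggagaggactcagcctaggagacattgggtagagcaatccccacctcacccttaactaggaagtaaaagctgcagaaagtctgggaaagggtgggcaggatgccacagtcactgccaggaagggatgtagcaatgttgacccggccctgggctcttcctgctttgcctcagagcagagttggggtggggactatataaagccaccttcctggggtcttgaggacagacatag
Cp: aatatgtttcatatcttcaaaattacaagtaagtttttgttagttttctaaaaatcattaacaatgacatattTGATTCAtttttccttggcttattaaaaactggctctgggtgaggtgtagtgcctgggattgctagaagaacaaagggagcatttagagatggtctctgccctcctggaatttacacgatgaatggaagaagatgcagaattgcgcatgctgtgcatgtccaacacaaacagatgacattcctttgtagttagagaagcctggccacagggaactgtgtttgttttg

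On both strands 5 motifs were searched. TGANTCA, the AP-1 motif, matched once in the upstream Cp window as TGATTCA, with its first base at -177 from the start. Of 32851 promoter windows of this length 7.8% hold that motif. TTCNNNGAA (STAT, in 8.3% of windows), TTGNNCAA (C/EBP, 6.4%), the NF-kB motif (GGG, any 2 bases, TTTCC, in 1.6%) and the HNF1 motif (GTTAAT, any base, ATTAAC, in 0.0091%) had 0 matches in these windows, and the downstream Cp window had 0 matches of any. With 1 match there was no overlap between motifs. These are descriptions of letters in short windows.

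Serpina10 was at background in both saline groups and bright in every kidney at 400 mg/kg. After ip 400 mg/kg its lowest, median and highest log2 intensities were 11.38, 11.68 and 11.73, against 3.21, 3.50 and 5.27 in ip saline. After iv 400 mg/kg they were 10.39, 11.10 and 11.42, against 2.57, 3.26 and 4.16 in iv saline. By either route the lowest treated kidney lay far above the highest saline kidney. The difference was 7.89 ± 0.61 (log2, SE) for ip 400 mg/kg over ip saline and 7.80 ± 0.61 for iv 400 mg/kg over iv saline, or 238-fold and 223-fold. Since the saline means, 3.74 ± 0.75 by ip and 3.24 ± 0.60 by iv (SD, n = 6 each), are near background, these sizes are approximate.

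Lrg1 had the same shape with more spread among treated kidneys. After ip 400 mg/kg its lowest, median and highest log2 intensities were 8.33, 9.94 and 10.40, against 3.06, 3.25 and 3.54 in ip saline. After iv 400 mg/kg they were 7.73, 9.72 and 10.84, against 3.27, 3.93 and 4.36 in iv saline. Treated and saline ranges did not overlap. The log2 difference was 6.25 ± 0.49 (SE, 76.1-fold) by ip and 5.69 ± 0.49 (51.6-fold) by iv. Here too the saline means, 3.29 ± 0.23 by ip and 3.90 ± 0.35 by iv (SD, n = 6 each), make the sizes approximate.

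Cp was well above background in saline kidneys, so its size is better measured. Its lowest, median and highest log2 intensities after ip 400 mg/kg were 11.58, 12.22 and 12.52, against 7.86, 8.32 and 8.70 in ip saline. After iv 400 mg/kg they were 10.65, 11.74 and 12.11, against 7.69, 8.37 and 8.55 in iv saline. No treated kidney fell within the saline range. The log2 difference was 3.83 ± 0.25 (SE, 14.2-fold) by ip and 3.29 ± 0.25 (9.79-fold) by iv.

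All 3 genes had every 400 mg/kg kidney above every saline kidney by both routes, which 24.1% of all 5748 genes had at ip 400 mg/kg and 15.1% had at iv 400 mg/kg. Nothing is read from that count, since the genes were chosen on these values. The difference between routes in the 400 mg/kg effect, ip minus iv, was 0.10 ± 0.86 for Serpina10, 0.56 ± 0.69 for Lrg1 and 0.54 ± 0.36 for Cp (log2, SE). These too are descriptions with no test, since they are built from the values on which the genes were chosen. In whole kidney, fewer cells of a type and less RNA per cell cannot be told apart, and the same holds for more cells and more RNA.

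**Figure D1:**
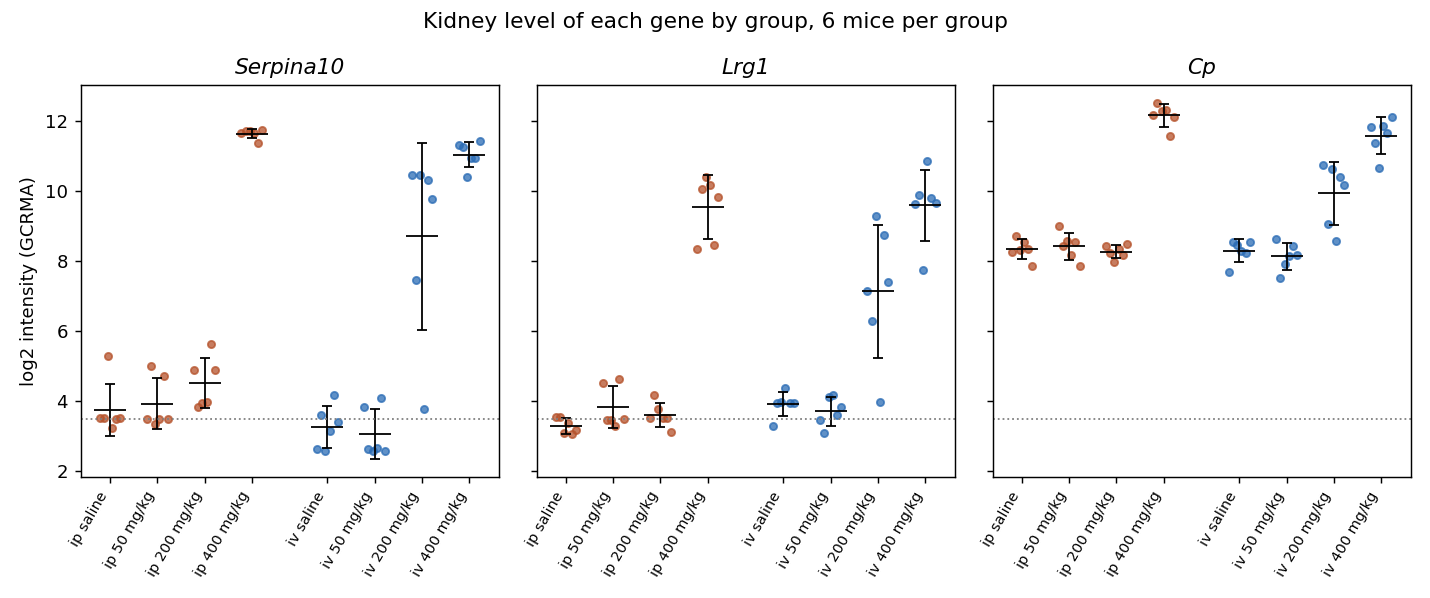
Log2 intensity (vertical axis) of Serpina10, Lrg1 and Cp in each of the 48 kidneys, by route and dose (ip in orange, iv in blue). Points are mice, horizontal bars are means with SD (n = 6), and the dotted line is the median of the table, 3.47. Every 400 mg/kg kidney lies above every saline kidney of its route, and at 200 mg/kg only the iv group is raised, with 1 kidney low.

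At 200 mg/kg the routes parted, and these values did not enter the choice of genes by name. They were nevertheless known when the genes were proposed. The same saline mice serve the 200 and 400 mg/kg comparisons, so the comparisons are not independent of the rule. Nothing is read from how many of the 3 genes passed. After iv 200 mg/kg all 3 genes rose (3 of 3, against 6.07% of all genes called higher and 7.36% called in either direction), and after ip 200 mg/kg 0 of 3 passed the test. The calls are from limma with Benjamini-Hochberg adjustment over the 5748 genes, at a threshold of 0.05. The fit shares 1 spread per gene over the 8 groups. The SD at iv 200 mg/kg was 2.68 for Serpina10, 1.90 for Lrg1 and 0.90 for Cp, against 0.60, 0.35 and 0.32 in iv saline. For iv 200 mg/kg the SE and intervals below are therefore too narrow and the adjusted p too small. For ip 200 mg/kg the SE and intervals are wider than the ip 200 mg/kg and ip saline mice alone would give.

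Serpina10 had lowest, median and highest log2 intensities of 3.75, 10.05 and 10.46 after iv 200 mg/kg, against 2.57, 3.26 and 4.16 in iv saline. It was above the highest saline kidney in 5 of 6 mice. The log2 difference was 5.46 ± 0.61 (SE, adjusted p = 1.9e-08, limma; 95% interval 4.24 to 6.68), which ranked 1 among the rises of all 5748 genes. After ip 200 mg/kg the values were 3.81, 4.41 and 5.61, against 3.21, 3.50 and 5.27 in ip saline, and the ranges overlapped. That difference was 0.76 ± 0.61 (adjusted p = 1.0, limma; 95% interval -0.46 to 1.99).

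Lrg1 had lowest, median and highest log2 intensities of 3.95, 7.27 and 9.27 after iv 200 mg/kg, against 3.27, 3.93 and 4.36 in iv saline. Again 5 of 6 mice lay above the saline range. The log2 difference was 3.23 ± 0.49 (SE, adjusted p = 1.2e-05, limma; 95% interval 2.25 to 4.22) and ranked 2. After ip 200 mg/kg the values were 3.11, 3.52 and 4.15, against 3.06, 3.25 and 3.54 in ip saline, with 2 of 6 mice above the saline range. That difference was 0.31 ± 0.49 (adjusted p = 1.0, limma; 95% interval -0.67 to 1.29).

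Cp had lowest, median and highest log2 intensities of 8.58, 10.30 and 10.75 after iv 200 mg/kg, against 7.69, 8.37 and 8.55 in iv saline. All 6 mice lay above the saline range, the lowest by a small margin; 1.24% of all genes had no overlap in this direction. The log2 difference was 1.65 ± 0.25 (SE, 3.13-fold, adjusted p = 1.6e-05, limma; 95% interval 1.13 to 2.16) and ranked 34. Ranks rest on measured sizes, and those of Serpina10 and Lrg1 are approximate because their saline means are near background. After ip 200 mg/kg the values were 7.97, 8.27 and 8.48, against 7.86, 8.32 and 8.70 in ip saline, within the saline range. That difference was -0.07 ± 0.25 (adjusted p = 1.0, limma; 95% interval -0.58 to 0.45).

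Because the iv 200 mg/kg group is far more spread than the others, exact permutation tests of the 2 groups were added after the data were seen. For iv 200 mg/kg over iv saline the two-sided exact p was 0.0043 for Serpina10, 0.0065 for Lrg1 and 0.0022 for Cp, unadjusted, where 0.0022 is the smallest value that 6 against 6 mice allow. For ip 200 mg/kg over ip saline the exact p was 0.084, 0.097 and 0.64 for Serpina10, Lrg1 and Cp in that order. At ip 200 mg/kg 0.0522% of all genes were called higher and 0.087% in either direction, and 0 of the 3 genes had an unadjusted limma p under 0.05.

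The difference between routes was tested directly, with an SE from the same shared spread. With iv 200 mg/kg in it, that SE too is too narrow and the adjusted p too small. The 200 mg/kg effect, ip minus iv, was -4.70 ± 0.86 for Serpina10 (log2, SE, adjusted p = 0.0012, limma), -2.93 ± 0.69 for Lrg1 (adjusted p = 0.027) and -1.71 ± 0.36 for Cp (adjusted p = 0.0086). Thus 3 of 3 passed, against 0.661% of all genes called lower and 0.974% in either direction. The number behind that last share, 56 genes, was itself unstable: it ranged from 19 (without iv 200 mg/kg mouse 27) to 179 (without iv 200 mg/kg mouse 28) when 1 mouse was left out, and was 714 with array weights. The call on Lrg1 was lost without iv 200 mg/kg mouse 27 (-2.50, adjusted p = 0.07), mouse 29 (-2.60, adjusted p = 0.07) or mouse 30 (-2.87, adjusted p = 0.052). It was also lost when only the 4 groups involved were fitted (adjusted p = 0.058). The calls on Serpina10 and Cp held in each of the 24 fits that left out 1 mouse. The ip and iv mice are separate sets, and no batch is named. In these tests route therefore cannot be told apart from a difference in mice or array processing.

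**Figure D2:**
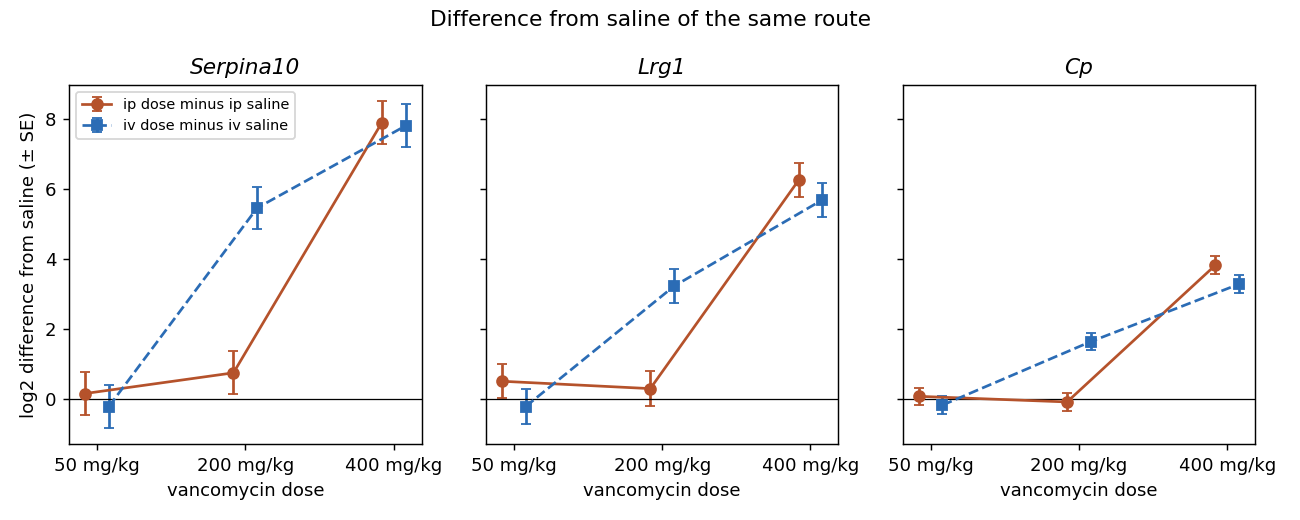
Log2 difference from saline of the same route (vertical axis, bars are SE from the fit over 48 arrays) at 50, 200 and 400 mg/kg for Serpina10, Lrg1 and Cp. Orange circles are ip and blue squares iv. At 200 mg/kg the ip differences lie between -0.07 and 0.76 and the iv differences between 1.65 and 5.46, while at 400 mg/kg both routes are high.

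The spread within the iv 200 mg/kg group ran the same way in all 3 genes. Mouse 28 was lowest in each, with log2 intensities of 3.75 for Serpina10, 3.95 for Lrg1 and 8.58 for Cp. Mouse 26 was second lowest in each, with 7.46, 6.27 and 9.06. The other 4 mice lay between 9.77 and 10.46 for Serpina10, between 7.15 and 9.27 for Lrg1 and between 10.18 and 10.75 for Cp. Mice 28 and 26 were also lowest and second lowest for the injury markers Clu (10.47 and 12.18, the other 4 from 13.75 to 14.36), Havcr1 (9.95 and 10.72, the other 4 from 12.53 to 13.74) and the epithelial keratin Krt20 (3.03 and 4.01, the other 4 from 5.22 to 8.05). Clu encodes the secreted chaperone clusterin and Havcr1 the tubular injury receptor KIM-1. Without mouse 28 the iv 200 mg/kg difference was 6.45 for Serpina10, 3.87 for Lrg1 and 1.92 for Cp.

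At 400 mg/kg some genes shared their lowest mouse, while the highest mouse was not the same across these genes in either group. In the iv group mouse 45 was lowest in Serpina10 (10.39), Lrg1 (7.73) and Cp (10.65) and also in Clu (13.84), Havcr1 (12.27) and Krt20 (7.08). In the ip group mouse 107 was lowest in Serpina10 (11.38) and Cp (11.58) and in Clu (13.88) and Havcr1 (13.17). Mouse 103 was lowest in Lrg1 (8.33) and Krt20 (7.67) but stood at rank 5 from the lowest in Havcr1 (13.42). The part of injury in the levels of the 3 genes was not tested.

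**Figure D3:**
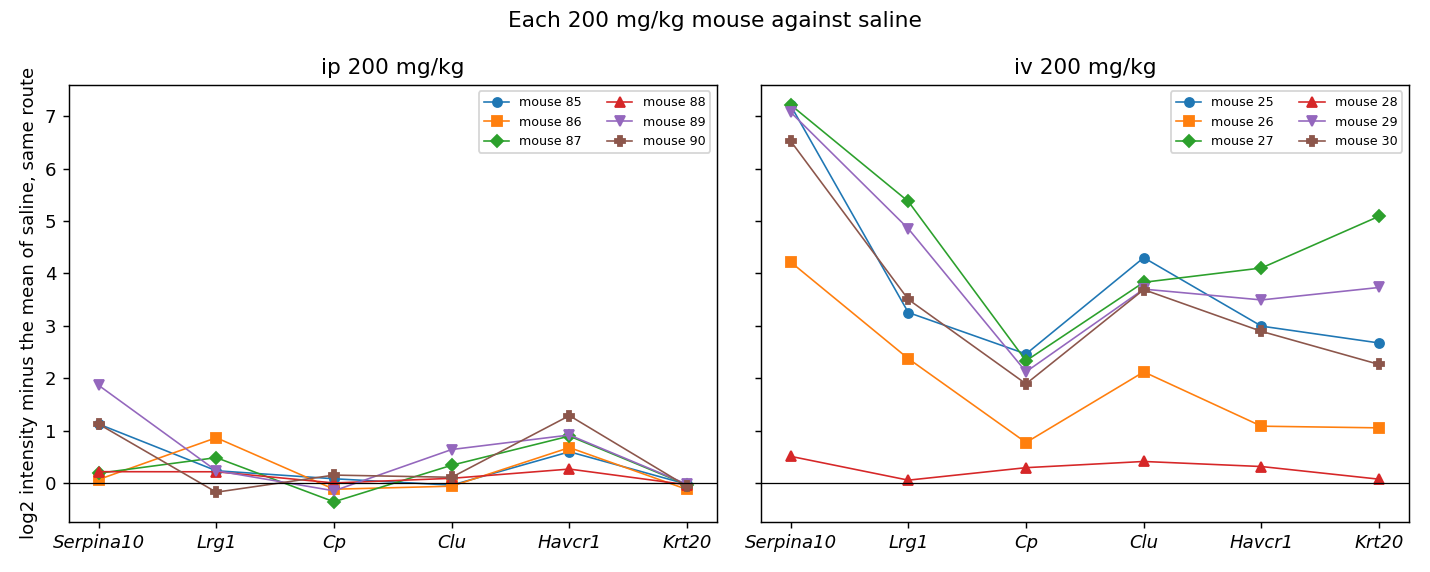
Log2 intensity of each 200 mg/kg mouse minus the mean of the saline group of its route (vertical axis) for Serpina10, Lrg1, Cp, Clu, Havcr1 and Krt20 (horizontal axis). Lines join the values of a mouse, with ip on the left and iv on the right. In the iv group mouse 28 lies near 0 in all 6 genes and mouse 26 between it and the other 4 mice, and no ip mouse reaches those 4 iv mice in any of the 6 genes.

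At 50 mg/kg no member passed the test by either route. The ip 50 mg/kg differences from ip saline were 0.17 ± 0.61 for Serpina10, 0.52 ± 0.49 for Lrg1 and 0.09 ± 0.25 for Cp (log2, SE, adjusted p = 1.0 each, limma). The iv 50 mg/kg differences from iv saline were -0.20 ± 0.61, -0.20 ± 0.49 and -0.16 ± 0.25 for the same genes (adjusted p = 1.0 each, limma). By limma, 0 of 3 passed at ip 50 mg/kg (0.087% of all genes called) and 0 of 3 at iv 50 mg/kg (0.539% called), and 0 of 3 had an unadjusted p under 0.05 in either, by limma or by exact permutation test. The 95% intervals reached 1.4, 1.5 and 0.61 at ip 50 mg/kg and 1.03, 0.78 and 0.35 at iv 50 mg/kg at their upper ends, and rises up to these sizes lie within the intervals. The 50 mg/kg effects did not pass a test between routes either (ip minus iv 0.37 ± 0.86, 0.72 ± 0.69 and 0.26 ± 0.36, adjusted p = 1.0 each, limma, 0 of 3 against 0.191% of all genes).

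Serpina10 at 50 mg/kg had lowest, median and highest log2 intensities of 3.34, 3.49 and 4.99 by ip and of 2.56, 2.62 and 4.08 by iv. For Lrg1 they were 3.29, 3.48 and 4.63 by ip and 3.09, 3.70 and 4.16 by iv. For Cp they were 7.85, 8.48 and 8.99 by ip and 7.51, 8.15 and 8.63 by iv. Each of these ranges overlapped that of saline of the same route.

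The saline groups were set against each other because the ip and iv arrays differed without any drug. No batch is named, and no mouse is shared between routes. An effect of route therefore cannot be told apart from a difference between sets of mice or in array processing. Over all genes ip saline was higher than iv saline by a median of 0.41 (log2), which was 0.25 after centring each array and -0.04 after quantile normalization, and 57.7% of genes were called. The number called, 3316, was 2138 after centring and 1344 after quantile normalization. Of the 3 genes 0 passed: the difference, ip saline minus iv saline, was 0.50 ± 0.61 for Serpina10 (adjusted p = 0.49, limma), -0.61 ± 0.49 for Lrg1 (adjusted p = 0.28) and 0.04 ± 0.25 for Cp (adjusted p = 0.90). The sign for Cp turned to -0.12 after centring and -0.48 after quantile normalization. Lrg1 was the exception in other tests, with an exact permutation p of 0.0087, unadjusted, and an adjusted p of 0.0039 when only these 2 groups were fitted with limma. The shared spread of the main fit includes iv 200 mg/kg, where the SD of Lrg1 was 1.90, against 0.23 in ip saline and 0.35 in iv saline. Its SE of 0.49 is therefore too wide for the saline groups. Both Lrg1 saline means lie near background.

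By mean level the order for Serpina10 was ip 400, iv 400 and iv 200 mg/kg, at 11.64 ± 0.13, 11.04 ± 0.37 and 8.70 ± 2.68 (log2, SD, n = 6 each). The next were ip 200 mg/kg at 4.51 ± 0.72, ip 50 mg/kg at 3.92 ± 0.73, ip saline at 3.74 ± 0.75, iv saline at 3.24 ± 0.60 and iv 50 mg/kg at 3.05 ± 0.71. Each neighbouring pair in that order overlapped in range, the upper 2 groups by a single mouse.

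For Lrg1 the order was iv 400 mg/kg at 9.59 ± 1.02, ip 400 mg/kg at 9.54 ± 0.91 and iv 200 mg/kg at 7.13 ± 1.90 (log2, SD, n = 6 each). The other 5 groups lay between 3.29 ± 0.23 in ip saline and 3.90 ± 0.35 in iv saline. For Cp it was ip 400 mg/kg at 12.16 ± 0.32, iv 400 mg/kg at 11.58 ± 0.52 and iv 200 mg/kg at 9.93 ± 0.90, with the other 5 groups between 8.13 ± 0.39 at iv 50 mg/kg and 8.42 ± 0.39 at ip 50 mg/kg. In both genes those 5 means differed by less than 1 log2 unit and their ranges overlapped.

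The 4 named Cp probe sets were compared with each other. They stand on neighbouring rows, 1761 to 1764, of 1 stretch, and such pairs helped to find the offsets. They are therefore no independent check of the gene name. Between arrays within groups, 1417494_a_at and 1417495_x_at correlated at 0.971 over 48 arrays, and 1417496_at correlated with them at 0.535 and 0.601. The dimmest, 1417497_at, correlated with the other 3 at 0.263 to 0.524. The log2 difference from ip saline at ip 400 mg/kg was 3.83, 3.96, 3.82 and 2.24 in the order of their numbers, and that from iv saline at iv 400 mg/kg was 3.29, 3.43, 3.12 and 0.89. At iv 200 mg/kg the differences were 1.65, 1.76, 1.59 and 0.30. Thus 3 probe sets gave nearly the same size and 1417497_at, with saline means of 3.42 by ip and 3.86 by iv, gave less. The mean over the named probe sets past the filter put the iv 400 mg/kg difference at 2.68.

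**Figure D4:**
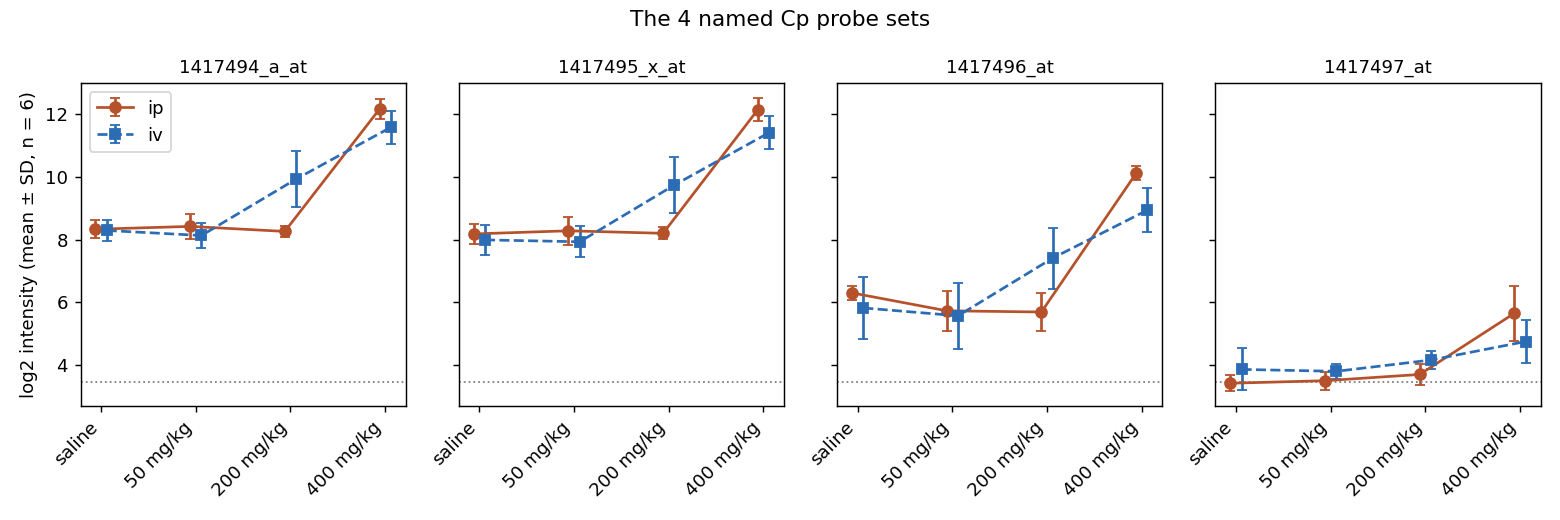
Log2 intensity (mean ± SD, n = 6) of the 4 named Cp probe sets by dose, with ip as orange circles and iv as blue squares, and the median of the table as a dotted line. The first 3 probe sets rise at iv 200 and at both 400 mg/kg groups, and 1417497_at stays below 6 on average.

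The genes most like each of the 3 were found by the correlation of the 8 group means and, apart from that, of the deviations within groups over 48 arrays. They are descriptions, since the points share arrays and normalization. The iv 200 mg/kg group had the largest SD in each of the 3 genes, so its 6 mice weigh most in the correlations within groups. For Serpina10 the group means were most like those of Timd2 (0.998), Clu (0.995), Col1a1 (0.993), Lgals3 (0.992) and Ifitm3 (0.991). Timd2 encodes a ferritin receptor of the TIM family, Col1a1 a fibrillar collagen and Lgals3 galectin 3. Within groups the closest were Aldh1a2 (0.782), a retinoic acid synthesis enzyme, Clu (0.780), Timd2 (0.777), Tmsb10 (0.751) and Havcr1 (0.751).

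For Lrg1 the closest group means were those of the NF-kB subunit Nfkb2 (0.998), Pdlim7 (0.996), the cyclin Ccna2 (0.995), Ifitm3 (0.995) and the fibrinogen chain Fga (0.994). Within groups they were the lipopolysaccharide co-receptor Cd14 (0.864), Krt20 (0.833), Fga (0.820), Tsc22d1 (0.785) and the tubulin Tubb2a (0.756). For Cp the closest group means were those of the chemokine Ccl5 (0.999), the carbonic anhydrase Car13 (0.999), the DNA repair gene Ercc1 (0.998), Cygb (0.998) and Ms4a6b (0.998). Within groups they were the tropomyosin Tpm4 (0.804), the keratin Krt8 (0.795), Gpm6b (0.775), Cd14 (0.750) and B4galnt1 (0.740).

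Among themselves the 3 genes correlated within groups at 0.618 (Serpina10 and Lrg1), 0.688 (Serpina10 and Cp) and 0.717 (Lrg1 and Cp) over 48 arrays. The median correlation of all genes with each of them was 0.039 for Serpina10, 0.040 for Lrg1 and 0.110 for Cp.

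The molecules that the 3 proteins are known to act with were looked up by name. Protein Z (Proz) and coagulation factors F10 and F11, partners of Serpina10, had no named probe set and were not analysed here. Of the Lrg1 partners, the ligand gene Tgfb1 rose by 3.19 ± 0.26 at ip 400 mg/kg (log2, SE, adjusted p = 1.6e-14, limma) and by 2.35 ± 0.26 at iv 400 mg/kg (adjusted p = 2.3e-10). Its receptor gene Tgfbr2 rose by 1.63 ± 0.18 (adjusted p = 8.2e-11) at ip 400 mg/kg and by 1.30 ± 0.18 (adjusted p = 4.3e-08) at iv 400 mg/kg. At iv 200 mg/kg the differences were 0.83 for Tgfb1 (adjusted p = 0.036) and 0.61 for Tgfbr2 (adjusted p = 0.025). These calls depended on the scaling: that on Tgfbr2 was lost after centring each array (0.58, adjusted p = 0.053), and that on Tgfb1 after quantile normalization (0.74, adjusted p = 0.074).

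Eng, the endoglin gene, did not pass at any of these doses. Its mean was 7.90 ± 0.13 at ip 400 mg/kg against 8.11 ± 0.17 in ip saline, and 7.88 ± 0.10 at iv 400 mg/kg against 7.87 ± 0.25 in iv saline (log2, SD, n = 6 each; adjusted p = 0.18 and 0.95, limma). After quantile normalization Eng was called lower at ip 400 mg/kg (-0.32, adjusted p = 0.023). The TGF-beta receptor gene Acvrl1 had no named probe set. Of the Cp partners, Slc40a1, which encodes ferroportin, rose by 0.47 ± 0.15 at ip 400 mg/kg (adjusted p = 0.0047), by 0.68 ± 0.15 at iv 400 mg/kg (adjusted p = 0.00013) and by 0.58 ± 0.15 at iv 200 mg/kg (adjusted p = 0.0073). The copper pump Atp7a did not pass (0.22 ± 0.26 at ip 400 and -0.15 ± 0.26 at iv 400 mg/kg), Atp7b did not pass the filter on low values, and the ferroxidase gene Heph had no named probe set.

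Pathway lists gave the surroundings of the 3 genes, which were left out of each list. Some genes, such as Fga, Alb, Cd14 and Eng, stand in 2 lists. The background share of genes called was 61.3% at ip 400 mg/kg and 49.7% at iv 400 mg/kg, and the median log2 difference of all genes was 0.11 and 0.09. Of 12 tested genes of coagulation and its regulators, 6 rose and 5 fell at ip 400 mg/kg, and 5 rose and 2 fell at iv 400 mg/kg, with a median of 0.42 at both. Fga rose by 4.08 and 4.24 (ip 400, iv 400), tissue factor F3 by 2.80 and 2.46, and protein S, Pros1, by 2.39 and 1.68. Proc, the protein C gene, fell by 1.61 and 0.85, and F5 fell by 1.66 at ip 400 mg/kg.

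Among 8 tested acute-phase and other plasma protein genes, 6 rose and 1 fell at both ip 400 and iv 400 mg/kg, with medians of 1.25 and 1.28. Cd14 rose by 5.78 and 5.31, fibronectin Fn1 by 3.98 and 3.35, and the protease inhibitor A2m by 3.10 and 2.05 (approximate, with saline means under 3.47). Albumin, Alb, fell by 3.25 and 2.61. Serpina1b, from the same serpin clade as Serpina10, rose by 1.94 and 1.60.

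Of 16 tested copper and iron genes, 6 rose and 5 fell at ip 400 mg/kg, and 6 rose and 3 fell at iv 400 mg/kg, with medians of 0.17 and 0.11. The metalloreductase-family gene Steap1 rose by 2.02 and 2.46, the metal transporter Slc39a14 by 1.40 and 1.20, and the metallothionein Mt1 by 1.40 and 1.08. The iron-responsive aconitase Aco1 fell by 1.00 and 0.73, the iron importer Slc11a2 by 0.97 and 0.50, and the ferritinophagy receptor Ncoa4 by 0.62 and 0.43.

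Of 22 tested TGF-beta, endoglin and SMAD genes, 11 rose and 2 fell at ip 400 mg/kg, and 7 rose and 4 fell at iv 400 mg/kg, with medians of 0.26 and 0.06. After quantile normalization these were 9 and 5, and 7 and 5, with medians of 0.18 and 0.00, so no direction is given for the list. The latent TGF-beta binding protein Ltbp2 rose by 3.31 and 1.87 (approximate, with saline means under 3.47), and Bmp7, which encodes an antifibrotic ligand of the tubule, fell by 1.51 and 1.11. Of 16 tested genes of IL-6 family and STAT3 signalling, which drives many acute-phase genes in liver, 14 rose and 1 fell at ip 400 mg/kg and 10 rose and 1 fell at iv 400 mg/kg, with medians of 1.81 and 1.01. The feedback inhibitor Socs3 rose by 6.03 and 5.21 (from saline means under 3.47, so the sizes are approximate), the oncostatin M receptor Osmr by 4.42 and 3.78, and Bcl3 by 3.03 at ip 400 and 3.13 at iv 400 mg/kg. The receptor gene Lifr fell by 0.48 and 0.64. Of these 16 genes, 3 in ip saline and 4 in iv saline had means under 3.47, where a fall could hardly be called.

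At iv 200 mg/kg, with a median of 0.06 over all genes, the lists had fewer calls. Of all genes, 6.07% were called higher there and 7.36% in either direction. In coagulation 3 of 12 rose, namely Fga (2.81), Pros1 (1.04) and F3 (0.95), and 0 fell. Among plasma proteins 2 of 8 rose, Cd14 (2.55) and Fn1 (1.70), and among copper and iron genes 2 of 16, Steap1 (1.17) and Slc40a1 (0.58). In the IL-6 and STAT3 list 4 of 16 rose, among them Socs3 (2.25), Osmr (2.00) and Bcl3 (1.10), and Cebpb fell by 1.18. In the TGF-beta list 3 of 22 were called higher, the third being Tgfbr1 (0.45), and 2 lower, Id1 (-2.06) and Smad7 (-0.72). After centring 1 was called higher and 2 lower, and after quantile normalization 1 higher and 3 lower, so no direction is given for the list. At ip 200 mg/kg 0 genes of these 5 lists passed in limma, where 0.087% of all genes were called in either direction. With so few calls over all genes, 0 in short lists says little. At an unadjusted limma p under 0.05 there were 1, 0, 0, 3 and 2 in the order coagulation, plasma, copper and iron, TGF-beta, and IL-6. Of all 5748 genes, 143 had such a p.

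**Figure D5:**
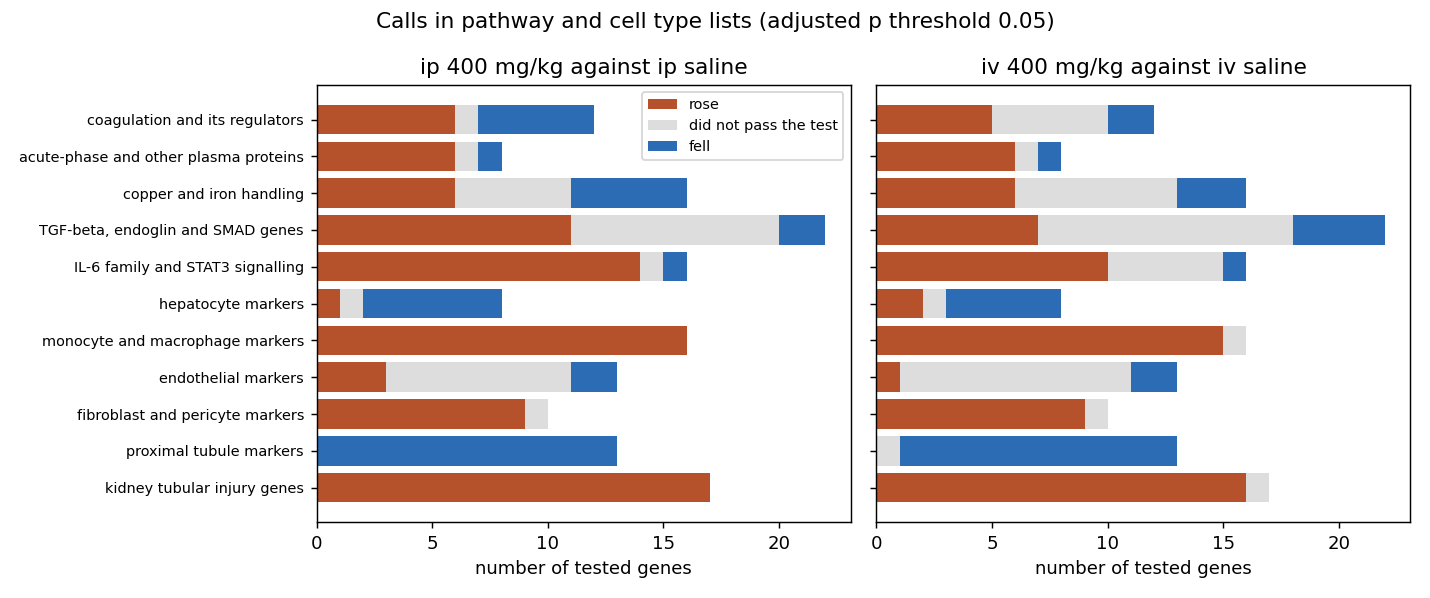
Number of tested genes (horizontal axis) in each pathway or cell type list that rose (orange), did not pass (grey) or fell (blue) at ip 400 mg/kg against ip saline and iv 400 mg/kg against iv saline. Monocyte and macrophage, fibroblast and injury lists are almost all orange, the proximal tubule list almost all blue, and the coagulation and copper and iron lists are mixed.

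Markers of cell types were followed beside the 3 genes, and their directions differed between lists. Of 8 tested hepatocyte markers, 1 rose and 6 fell at ip 400 mg/kg, and 2 rose and 5 fell at iv 400 mg/kg. The marker that rose by both routes was Fga, with the values given above, and Apoc3, an apolipoprotein gene, rose by 0.88 at iv 400 mg/kg. At iv 200 mg/kg 1 rose, again Fga, and 0 fell by limma (2 of 8 had an unadjusted p under 0.05), with a median of -0.62. Their summed linear intensity was 3227 to 20020 at ip 400 mg/kg against 26523 to 34863 in ip saline, and 14449 to 33152 at iv 200 mg/kg and 8030 to 23746 at iv 400 mg/kg against 20462 to 36641 in iv saline. Albumin, the defining product of hepatocytes, was near background after 400 mg/kg, at 3.54 ± 0.70 by ip and 3.58 ± 0.68 by iv, against 6.79 ± 0.36 in ip saline and 6.20 ± 0.67 in iv saline (log2, SD, n = 6 each). Kidney tubules are known to express some of these markers, such as Hpd, Pck1, G6pc and Fabp1.

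Of all genes, 61.3% were called at ip 400, 49.7% at iv 400 and 7.36% at iv 200 mg/kg, in either direction. Monocyte and macrophage markers rose in 16 of 16 at ip 400 and in 15 of 16 at iv 400 mg/kg. At iv 200 mg/kg 12 of 16 of these markers rose. Their median log2 differences were 4.47, 3.21 and 1.42 at ip 400, iv 400 and iv 200 mg/kg. Their summed linear intensity was 13381 to 31742 at ip 400 mg/kg against 719 to 1350 in ip saline. It was 881 to 4488 at iv 200 mg/kg and 5884 to 16075 at iv 400 mg/kg, against 701 to 836 in iv saline. At ip 200 mg/kg, where the 3 genes did not pass, it was 942 to 1348. Of the 16 markers, 5 in ip saline and 4 in iv saline had means under 3.47. Such genes could pass the filter through the groups where they were high, and a fall could hardly be called. The counts of rises are therefore partly built in and the medians approximate. Fibroblast and pericyte markers rose in 9 of 10 at both 400 mg/kg doses.

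Tubular injury genes rose in 17 of 17 at ip 400 and in 16 of 17 at iv 400 mg/kg. At iv 200 mg/kg 11 of 17 rose, where 6.07% of all genes were called higher. Of the 17 injury genes, 4 in ip saline and 2 in iv saline had means under 3.47, so their rises are partly built in by the filter. Summed intensities of the injury genes were 47991 to 75198 at ip 400, 33756 to 67568 at iv 400 and 6637 to 43351 at iv 200 mg/kg. In saline they were 5872 to 7899 by ip and 4126 to 7750 by iv. Proximal tubule markers fell in 13 of 13 at ip 400 mg/kg and in 12 of 13 at iv 400 mg/kg. Endothelial markers, the cells on which Lrg1 is known to act, rose in 3 and fell in 2 of 13 at ip 400 mg/kg and rose in 1 and fell in 2 at iv 400 mg/kg. After quantile normalization 2 rose and 6 fell at ip 400 mg/kg, so no direction is given for that list. Neutrophils, a known source of Lrg1, could hardly be followed, since only Csf3r of 18 markers was tested (1.27 ± 0.23, adjusted p = 5.8e-06, at ip 400 and 0.42 ± 0.23, adjusted p = 0.13, at iv 400 mg/kg). The part of any of these cell types in the levels of Serpina10, Lrg1 and Cp was not tested.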

How the data were processed

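RNA of whole kidney was hybridised as biotin-labelled cRNA, 1 mouse per array, per the labels' protocols. The deposited table holds linear intensity values for 45101 probe sets, which the authors computed with GCRMA, according to the submitters' processing notes. Its version and whether all arrays were normalized in 1 run were not given in the sources used here. The deposited values spanned 1.78 to 63594, and their log2 was taken with no offset. No batch is named in the labels, and mice were treated as independent.

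Rows 751 to 3250, 5001 to 11750 and 34251 to 36000 took the symbol of the identifier at an offset of 64, -47 and -16168 rows, and other rows stayed unnamed. A single symbol was annotated to 34958 probe sets, and those with several (932) or no symbol (9211) stayed unnamed. Per gene the row with the highest mean was used, and genes above 3.47 in at least 6 arrays were kept. All 8 groups were fitted together with limma 3.58.1 (R 4.3.3; eBayes with trend, residual df 40), two-sided, with Benjamini-Hochberg adjustment in each of 10 comparisons. Mean differences were also tested by exact permutation (924 splits), and the fit was tested on simulated data. Promoter sequences are from RefSeq (GRCm38.p6).

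The 3 genes, the pathway and marker lists and the motifs were chosen with earlier results of these data known. Named besides them are known partners, the 5 most like genes by each measure, and from each list up to 3 of the largest called rises and falls at 400 mg/kg and called genes at lower doses. Some other list genes (Serpina1b, Ltbp2, Bmp7 and the hepatocyte markers) were named with their values known. Alternatives tried were centring, quantile normalization, no and stricter filters, array weights, only the groups compared, the mean of a gene's rows, all probe sets, identifiers as listed, and leaving out each mouse.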

Additional observations from a re-analysis of the deposited data

Results flagged for a closer look

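In 24 sets of 6 mice (3 genes in 8 groups) the highest or lowest value was compared with its neighbour by Dixon's test, which chance alone passes in about 1 in 20. Serpina10 passed in 2 of them. In ip saline 1 mouse had a log2 intensity of 5.27, with the next at 3.51, and that mouse was also highest of its group in Havcr1 (11.25) but not in Lrg1 (3.07), Cp (8.31), Clu (10.33) or Krt20 (2.82). At ip 400 mg/kg 1 mouse was low at 11.38, with the next at 11.65, in a group that spans little.

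The 200 mg/kg effect differed between routes by a test of the difference itself, ip minus iv: -4.70 for Serpina10, -2.93 for Lrg1 and -1.71 for Cp (log2). The limits given above on the choice of genes, the shared spread and the separate sets of mice hold here too. The same test passed with the same sign for Clu (-2.83), Fga (-2.92), Timd2 (-2.49), Cd14 (-2.31), Socs3 (-2.27) and Osmr (-1.77). For Krt20 (-2.53 ± 0.69, adjusted p = 0.058, limma) and Havcr1 (-1.71 ± 0.59, adjusted p = 0.16) the difference between routes did not pass.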

How the results depend on the processing

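No paired analysis was possible because every mouse has its own number and none is shared between groups. Of 285 values of the 3 genes under alternatives other than leaving out a mouse, 264 stayed on the same side of the test's threshold or, at 400 mg/kg, moved by less than 1 SD; uncalled values near 0 could change sign. With identifiers as listed, which gives other rows, Serpina10 differed by 0.25 at iv 200, 0.31 at iv 400, 0.39 at ip 400, 0.85 between saline groups and 0.01 in the 200 mg/kg route effect. Lrg1 gave 0.02, -0.21, -0.37, 0.55 and -0.05, and -0.16 in the 400 mg/kg route effect. Cp gave 0.13, -0.39, -1.09, 0.76, 0.05 and -0.70. Fitting only the groups compared put Lrg1 at -0.61 (adjusted p = 0.0039) between saline groups and at -2.93 (adjusted p = 0.058) in the 200 mg/kg route effect. The exact test gave -0.61 with p = 0.0087 for the saline groups. The mean of its rows gave 2.68 for Cp at iv 400 mg/kg. Leaving out 1 mouse, Lrg1 in the 200 mg/kg route effect ranged from -3.56 to -2.50.

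Counts of genes called moved more. For ip over iv saline they were 2138 (centred), 1344 (quantile) and 14430 (all probe sets). For ip 50 mg/kg they were 3 (quantile), 3 (stricter filter), 13 (array weights) and 0 (only the groups, by limma, with 108 of 5748 at an unadjusted p under 0.05 in the fit of all groups), and for ip 200 mg/kg 3, 3 and 18 under the first 3 of these. For iv 50 mg/kg they were 90 (weights) and 196 (all probe sets), and for iv 200 mg/kg 1398 (weights), 76 (only the groups) and 1342 (all probe sets). The 50 mg/kg route effect had 51 (weights) and 47 (all probe sets). The 200 mg/kg route effect had 31 (no filter), 714 (weights) and 147 (all probe sets), and that of 400 mg/kg 96 (stricter filter), 643 (weights), 76 (only the groups) and 1331 (all probe sets). All probe sets gave 10279 at iv 400 and 14250 at ip 400 mg/kg, from more rows tested. Leaving out 1 mouse gave 271 (without iv 200 mg/kg mouse 25) to 590 at iv 200, 1 to 6 at ip 50, 3 to 7 at ip 200, 19 to 179 for the 200 mg/kg and 148 to 530 for the 400 mg/kg route effect. Apart from the named constructions the causes were not tested. Signal near background limits the sizes of the Serpina10 and Lrg1 rises.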

Other observations

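Fga, a fibrinogen chain gene made mostly in liver and known to be raised in injured tubules, had levels close to the pattern of Lrg1. Its log2 intensity was 11.42 ± 0.52 at ip 400 mg/kg against 7.35 ± 0.19 in ip saline, and 10.25 ± 1.99 at iv 200 and 11.68 ± 1.14 at iv 400 mg/kg against 7.44 ± 0.47 in iv saline (SD, n = 6 each). At ip 200 mg/kg its difference from ip saline was -0.11 ± 0.48 (log2, SE), which did not pass.

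The transcription factor genes Cebpb and Cebpd, known to act on acute-phase genes in liver, differed at iv 50 mg/kg and between the saline groups. In limma Cebpb fell by 2.00 ± 0.27 (log2, SE, adjusted p = 3.1e-06) and Cebpd fell by 1.53 ± 0.28 (adjusted p = 0.00083) at iv 50 mg/kg, where Serpina10, Lrg1 and Cp did not pass. In ip saline they were lower than in iv saline, by -2.07 ± 0.27 (adjusted p = 2.9e-08) for Cebpb and -1.12 ± 0.28 (adjusted p = 0.00097) for Cebpd. The iv differences are thus measured from a saline group in which both genes were higher than in ip saline. At ip 400 mg/kg Cebpb rose by 2.56 ± 0.27 (adjusted p = 4.4e-11, limma), and at iv 400 mg/kg its difference was 0.27 ± 0.27 (adjusted p = 0.43). For Cebpd the differences were 1.78 ± 0.28 at ip 400 mg/kg (adjusted p = 6.1e-07, limma) and 0.60 ± 0.28 at iv 400 mg/kg (adjusted p = 0.074). The part of either gene in the levels of Serpina10, Lrg1 and Cp was not tested. The comparisons within a route share their saline mice.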
